A study of Rattus norvegicus with 288 samples.

Results

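The liver arrays of rats killed 24 h after an oral dose of sorafenib were compared with those of rats given its vehicle, after either of 2 infusions. The comparison used 15 of the 288 arrays of the series, 7 from sorafenib rats and 8 from vehicle rats, each array from a separate rat. All animals were male Sprague Dawley rats about 8 weeks old. Each rat first received a 30 min intravenous infusion, of oxaliplatin at 15 mg per kg or of the vehicle D5W (dextrose in water), and then an oral dose of sorafenib at 25 mg per kg or of the oral vehicle alone. That vehicle, labelled F68/PG/PEG400 and called F68 here, combined the surfactant Pluronic F68 with propylene glycol and polyethylene glycol. The groups were D5W then F68 (n = 4), D5W then sorafenib (n = 3), oxaliplatin then F68 (n = 4) and oxaliplatin then sorafenib (n = 4). Liver arrays of rats killed at 1 h or 6 h, or given oral sunitinib at 5 mg per kg or water, entered the normalization and a wider model. Members were taken by the tissue, time and treatment in the sample titles, which gave 16 arrays, and 1 array labelled D5W then sorafenib was left out because its kidney markers had a median of 13.0 log2 and its hepatocyte markers a median of 6.62. The 15 arrays used had hepatocyte marker medians from 14.7 to 14.8, kidney marker medians from 5.97 to 6.50 and heart marker medians from 5.16 to 5.62, so all of them carried a liver profile.

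Sorafenib inhibits RAF kinases and the receptors for VEGF and PDGF, and it is used against liver cancer. VEGF, released by hepatocytes and other liver cells, signals through receptors on the endothelial cells that line the sinusoids, the porous capillaries of the liver. These sinusoidal cells clear hyaluronan, other matrix fragments and immune complexes from blood through scavenger receptors such as stabilin-2 (Stab2), and they carry the hyaluronan receptor Lyve1. The liver also removes foreign compounds with cytochromes P450, among which Cyp1a1 is the classic target of the aryl hydrocarbon receptor.

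The promoters of Lyve1, Stab2 and Fam167b, the 3 largest falls called in the fit without narrow arrays described further on, are shown. All were lower with sorafenib after both infusions, but Stab2 missed the threshold after oxaliplatin in the fit of 4 groups (adjusted p = 0.0685, limma). An ETS motif was marked because Ets1, which encodes an ETS-family transcription factor, was lower too. Each is 300 bases, 250 before and 50 after the annotated start, from RefSeq on the rat assembly GRCr8, and all lie on the minus strand. Capitals mark AGGAAG, a core of the kind ETS factors bind, or its complement CTTCCT.
Lyve1 (chr1:174410928-174411227, minus strand): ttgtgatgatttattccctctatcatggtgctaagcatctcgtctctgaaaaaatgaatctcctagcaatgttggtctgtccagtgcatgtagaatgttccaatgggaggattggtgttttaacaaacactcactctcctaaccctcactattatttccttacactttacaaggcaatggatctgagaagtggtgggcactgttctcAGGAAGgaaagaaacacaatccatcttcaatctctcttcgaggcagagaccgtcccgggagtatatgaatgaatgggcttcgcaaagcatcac
Stab2 (chr7:23320513-23320812, minus strand): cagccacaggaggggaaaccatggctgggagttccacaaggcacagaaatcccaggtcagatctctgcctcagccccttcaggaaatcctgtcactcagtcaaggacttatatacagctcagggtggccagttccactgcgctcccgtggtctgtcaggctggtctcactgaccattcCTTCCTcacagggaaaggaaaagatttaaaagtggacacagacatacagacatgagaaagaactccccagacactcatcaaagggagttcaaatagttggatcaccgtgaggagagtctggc
Fam167b (chr5:147206574-147206873, minus strand): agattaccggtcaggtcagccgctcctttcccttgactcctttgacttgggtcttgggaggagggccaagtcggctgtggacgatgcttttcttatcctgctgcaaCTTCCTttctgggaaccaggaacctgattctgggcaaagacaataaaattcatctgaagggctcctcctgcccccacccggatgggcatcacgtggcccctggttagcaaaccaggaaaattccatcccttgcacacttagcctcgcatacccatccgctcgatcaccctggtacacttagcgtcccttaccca
Of 14 genes looked up, those called after oxaliplatin in either of the fits described further on, 11 were in the RefSeq table and 5 held a match on either strand, namely Fam167b, Gng11, Lyve1, Stab2 and Tcf4. Adamts1, Gpr182, Naxe, Pea15, Rasgrp3 and Rb1 held none, so the 3 promoters shown are all from genes with a match. The same letters stood in 34.5% of 33469 promoters of the same length, so a match is common and is a description of the letters only.

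Before the results, 4 arrays have to be set apart. On the 3 D5W then sorafenib arrays and on replicate 2 of oxaliplatin then sorafenib, the interquartile range of the deposited log2 values was 2.53 to 2.76, against 2.91 to 3.36 on the other 91 liver arrays of the series. These are called the narrow arrays. The first principal component of the 15 arrays held 42.3% of the variance, and the narrow arrays scored 19.6 to 37.9 on it while the other 11 scored -22.9 to -1.76. A hybridization control, Cre, read 14.1 to 14.3 on the narrow arrays and 13.5 to 13.9 on the others. The difference between the 3′ and 5′ probe sets of beta-actin, a measure of RNA quality, was 0.64 to 0.76 log2 in the D5W then sorafenib rats and 0.77 to 0.85 in the D5W then F68 rats, without overlap, and the corresponding ranges after oxaliplatin, 0.76 to 0.84 and 0.77 to 0.88, overlapped. Each array had its own code in the labels, in which the number before the last letter was shared by all F68 arrays and another by all sorafenib arrays. The labels do not say what this number stands for, and it cannot be told apart from treatment. With no other array in the D5W then sorafenib group, the narrow spread and sorafenib cannot be told apart after D5W. After oxaliplatin 3 other sorafenib arrays remained, called ordinary here. Their interquartile ranges were 3.01, 3.03 and 2.91, below the liver median of 3.19, and those of the oxaliplatin then F68 arrays were 2.98 to 3.18. The value of 2.91, from replicate 4, was the lowest of the other 91 arrays. Whether a weaker form of the narrow spread remained in the ordinary arrays was not tested. Main results are therefore given with each infusion. After oxaliplatin they are also given from a fit of the liver arrays normalized and modelled without the 4 narrow arrays. This is called the fit without narrow arrays. For many list members only the average over both infusions is given, and its D5W then sorafenib part comes from narrow arrays alone.

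**Figure D1:**
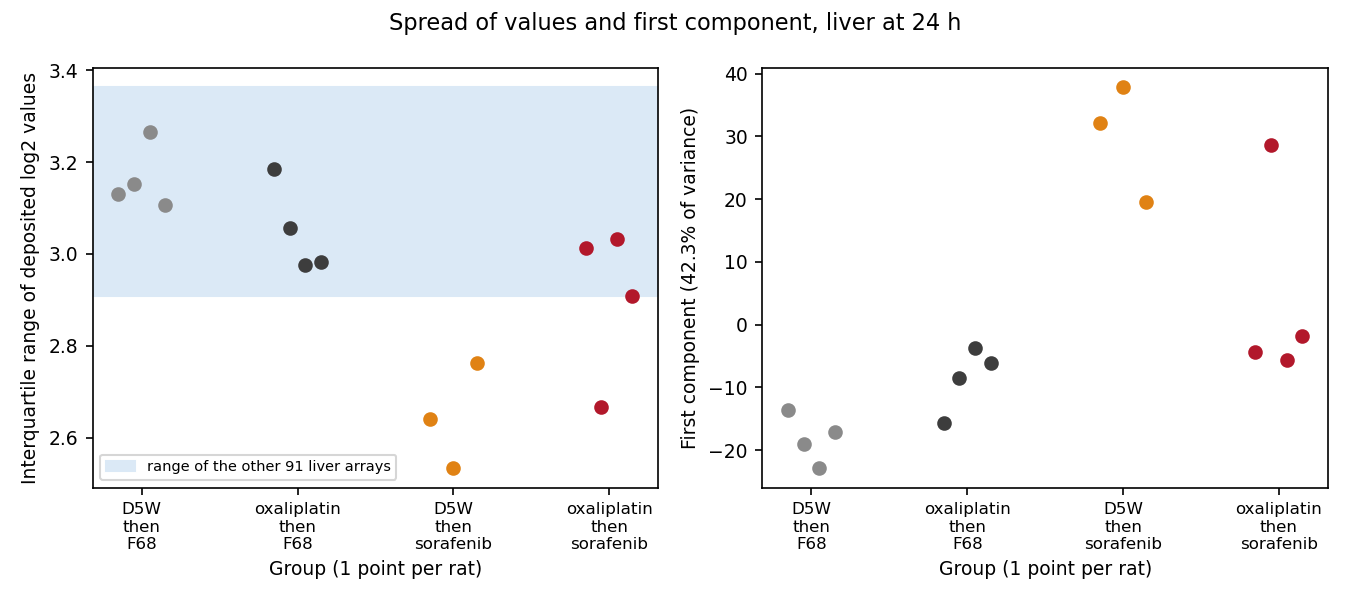
Interquartile range of the deposited log2 values (left) and score on the first principal component (right) for each rat, by group, with 1 point per rat and the range of the other 91 liver arrays shaded. The 3 D5W then sorafenib arrays and 1 oxaliplatin then sorafenib array lie below the shaded range and above 19 on the component.

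Averaged over both infusions, 3776 of 11320 genes (33.4%) changed with sorafenib at an adjusted p under 0.05 and had the same sign within each infusion, 1968 higher (17.4%) and 1808 lower (16%). These shares are the background for the list counts below. A further 135 of the 3911 genes that passed the averaged test (34.5%) had opposite signs. Most of this lay after D5W, where 4468 genes passed (39.5%), 2222 higher (19.6%) and 2246 lower (19.8%). After oxaliplatin 5 genes passed (0.0442%), all lower. Of the 11320 genes, 737 had an unadjusted p under 0.05 in limma, 385 higher and 352 lower. With no effect at all, a share of about 0.05 of the genes tested would do so, here and in the later counts of this kind. The genes changed on average had a median size of 0.56 on the log2 scale after D5W and of 0.17 after oxaliplatin, and of 0.09 without replicate 2, the narrow array of that group. With the beta-actin difference as a covariate, 967 genes changed on average and 1377 passed after D5W, and its part in the changes was not tested further. Changes were mostly small, with 19 genes at least 2-fold higher and 19 at least 2-fold lower on average. In 151 genes (1.33%) the 7 sorafenib rats and the 8 F68 rats did not overlap, 75 higher and 76 lower. A gene was tested when it exceeded 6 log2 on at least 3 of the 15 arrays, and 131 genes did so on arrays of only 1 arm, so that the filter itself favoured a difference. Of these, 102 are among the genes changed on average, 73 higher and 29 lower. Bub1, Clec14a, Etv1, Irs1 and Lum, above 6 log2 in F68 rats only, and Car9 and Umod, above it in sorafenib rats only, are the 7 such genes in the lists below, and list counts are given with and without them. The direction of the calls also depended on scaling. The share of higher genes among the changed genes was 52.1% after the second quantile normalization, 27.2% on the values as deposited and 21.4% when each array was centred on its median, and the median of all genes moved from -0.02 to -0.16 and -0.19 log2.

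**Figure D2:**
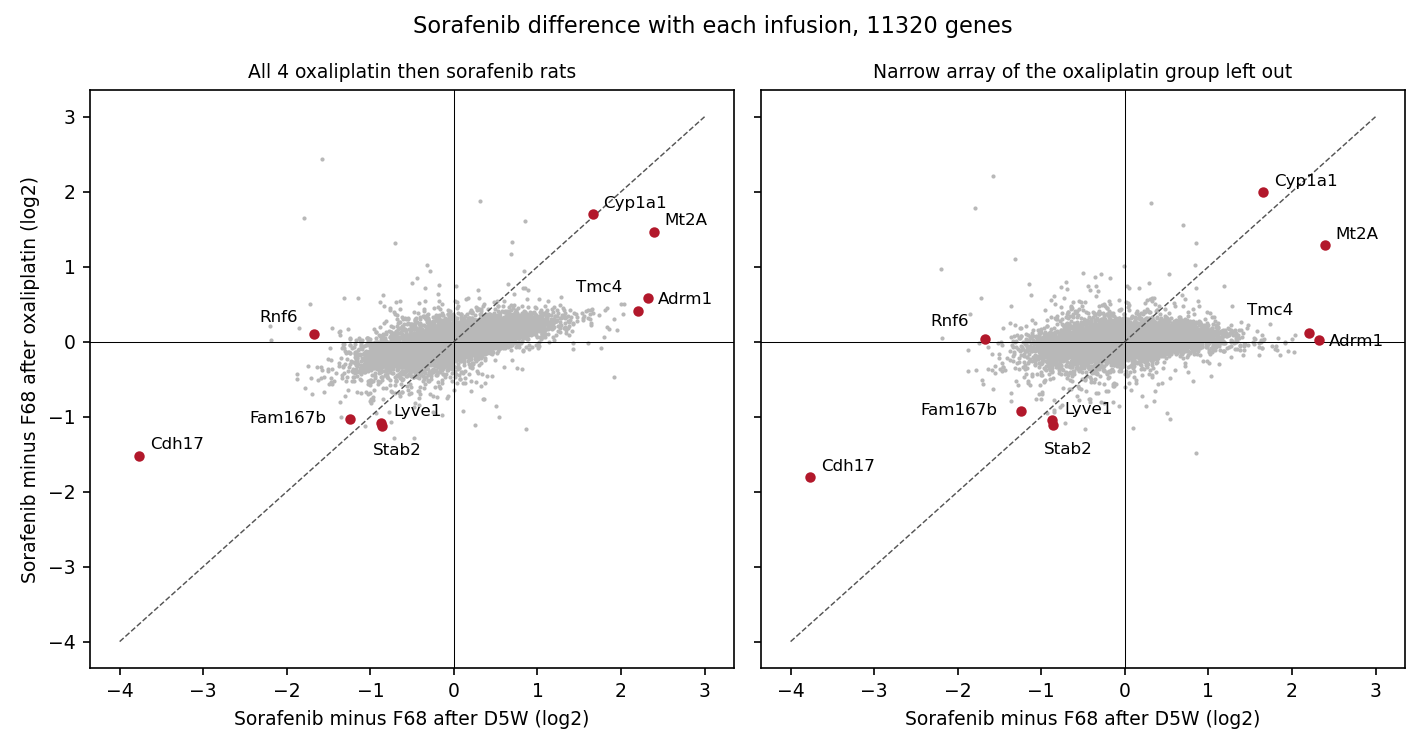
Sorafenib minus F68 difference (log2) of each of the 11320 genes after D5W (horizontal axis) and after oxaliplatin (vertical axis), with all 4 oxaliplatin then sorafenib rats (left) and in the fit without narrow arrays (right), and with equal differences on the dashed line. Lyve1, Stab2, Fam167b and Cyp1a1 lie near the dashed line in both panels, while Adrm1 and Tmc4 lie near 0 on the vertical axis at the right.

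The genes lower after both infusions were Lyve1, Fam167b, Rasgrp3, Adamts1 and Rb1, and 0 genes passed in the higher direction after both. Lyve1 (probe set 1382192_at), the hyaluronan receptor of lymphatic and sinusoidal endothelium, read 10.89, 10.86, 11.29 and 10.97 log2 in the D5W then F68 rats and 9.90, 10.34 and 10.15 in the D5W then sorafenib rats. After oxaliplatin it read 11.32, 10.996, 11.16 and 11.31 with F68 and 10.09, 10.01, 10.21 and 10.15 with sorafenib. Every sorafenib rat lay below every F68 rat, by at least 0.5 log2, and the narrow and ordinary arrays of the oxaliplatin group were alike. Lyve1 fell by 0.87 ± 0.13 (SE) on the log2 scale after D5W (adjusted p = 0.000468, limma) and by 1.08 ± 0.12 after oxaliplatin (adjusted p = 0.00207), which is 1.83-fold and 2.11-fold. In the fit without narrow arrays it fell by 1.04 ± 0.15 (adjusted p = 5.49e-06).

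Fam167b (1384405_at) read 9.65, 9.68, 9.88 and 9.60 with F68 and 8.65, 8.35 and 8.36 with sorafenib after D5W. After oxaliplatin it read 9.44, 9.33, 9.74 and 9.91 with F68 and 8.44, 8.27, 8.63 and 8.97 with sorafenib. The groups did not overlap, and the log2 difference was -1.25 ± 0.16 after D5W (adjusted p = 0.00042) and -1.03 ± 0.15 after oxaliplatin (adjusted p = 0.0305), the lowest average among the 5 genes. Rasgrp3 (1390159_at), an exchange factor that activates Ras proteins in response to diacylglycerol, read 8.05, 8.23, 8.33 and 8.18 with F68 and 7.26, 7.19 and 7.07 with sorafenib after D5W. After oxaliplatin Rasgrp3 read 8.27, 8.23, 8.11 and 8.44 with F68 and 7.48, 7.57, 7.78 and 7.43 with sorafenib. Its sorafenib rats were again all below the F68 rats, with a difference of -1.02 ± 0.10 after D5W (adjusted p = 0.000317) and -0.70 ± 0.10 after oxaliplatin (adjusted p = 0.0222).

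Adamts1 (1368223_at), a secreted metalloprotease that cuts matrix proteoglycans, read 8.40, 8.40, 8.48 and 8.10 with F68 and 7.70, 7.17 and 7.38 with sorafenib after D5W. After oxaliplatin Adamts1 read 8.56, 8.51, 8.46 and 8.9998 with F68 and 7.83, 7.66, 7.88 and 7.38 with sorafenib. The differences were alike with each infusion, -0.93 ± 0.16 (adjusted p = 0.000996) and -0.95 ± 0.15 (adjusted p = 0.0452). Rb1 (1388185_at), the retinoblastoma protein that restrains entry into S phase, read 8.94, 9.13, 9.18 and 8.98 with F68 and 8.21, 8.26 and 8.48 with sorafenib after D5W. After oxaliplatin Rb1 read 8.95, 9.25, 8.90 and 8.93 with F68 and 8.22, 8.19, 8.58 and 8.37 with sorafenib. Neither gene's groups overlapped, and Rb1 differed by -0.74 after D5W and by -0.67 ± 0.11 after oxaliplatin (adjusted p = 0.0452). In the fit without narrow arrays Adamts1 and Rb1 kept differences of -0.95 and -0.62 but missed the threshold (adjusted p = 0.0962 and 0.168).

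The count of 5 depended on single rats. Counted without 1 rat at a time, it was 1 without oxaliplatin then F68 replicate 1, oxaliplatin then F68 replicate 4 or oxaliplatin then sorafenib replicate 2, and 2 without oxaliplatin then F68 replicate 3, oxaliplatin then sorafenib replicates 1 or 4, D5W then F68 replicate 1 or D5W then sorafenib replicate 4. It was 3 without D5W then F68 replicate 3, and from 4 to 6 without each of the other rats. Lyve1 passed after oxaliplatin in each of these 15 fits, and failed when the array with the kidney profile was kept (-1.08, adjusted p = 1).

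**Figure D3:**
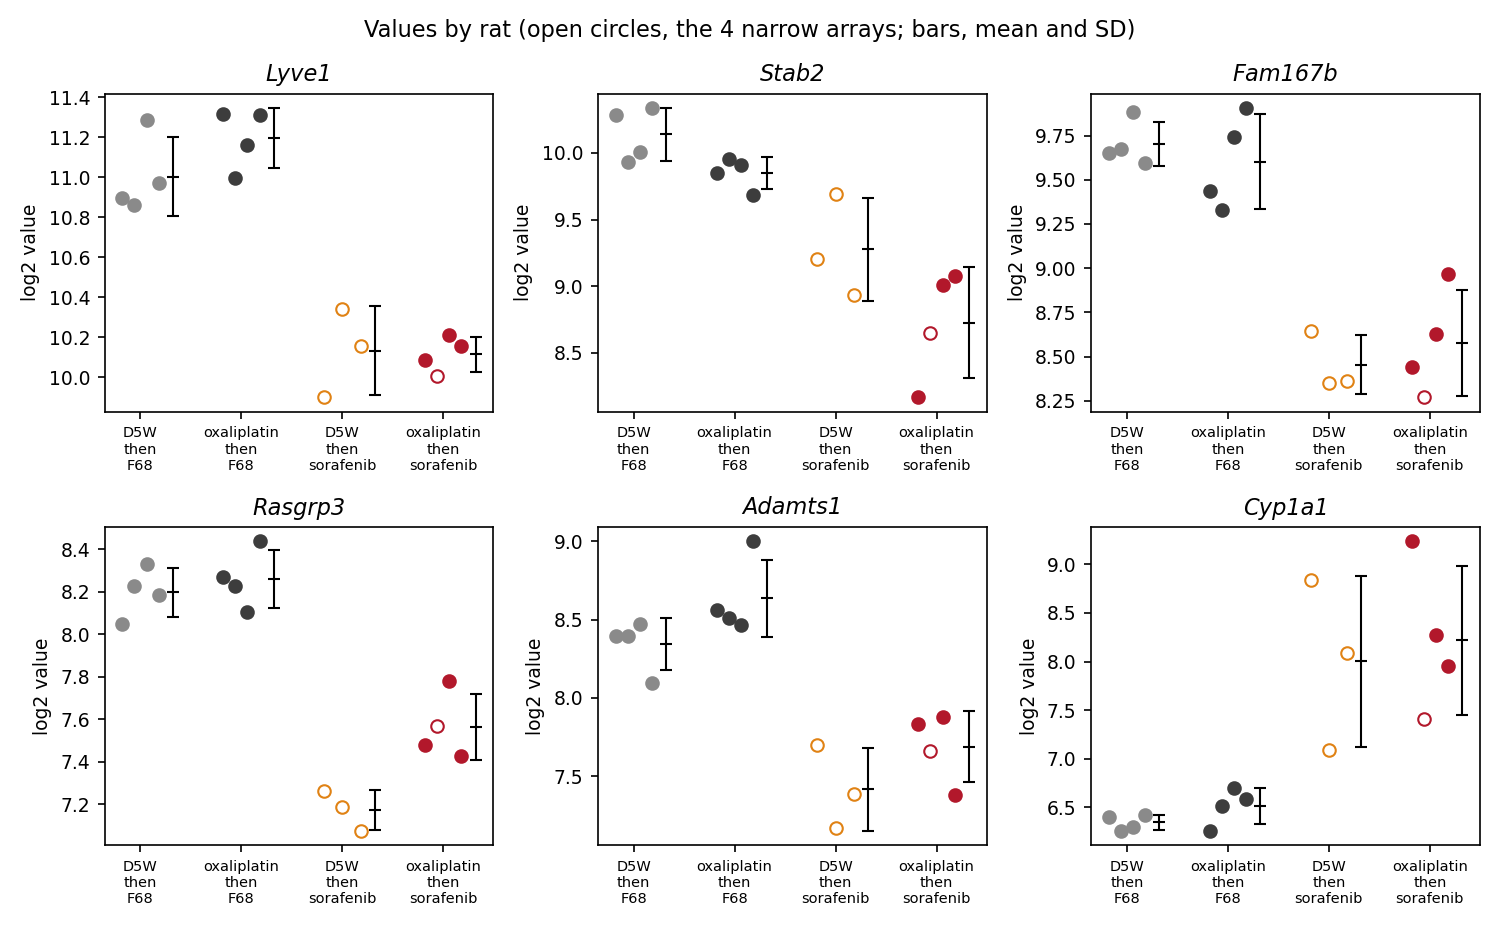
Log2 values of Lyve1, Stab2, Fam167b, Rasgrp3, Adamts1 and Cyp1a1 in each rat, by group, with open circles for the 4 narrow arrays and bars for the mean and SD of each group. In all 6 genes the sorafenib rats lie apart from the F68 rats with each infusion, below them in 5 and above them in Cyp1a1.

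Without the narrow arrays, 12 genes passed after oxaliplatin (0.106%), with 3 sorafenib rats against 4 F68 rats and 804 genes at an unadjusted p under 0.05 in limma. This fit took its variance from all remaining liver groups, so its count is not comparable with that of the fit of 4 groups. In the fit of 4 groups without oxaliplatin then sorafenib replicate 2, 1 gene passed, Lyve1. In 1 model of 24 liver groups 188 genes passed, and 10 without that array. The 12 genes were chosen after their values were seen. The 9 that fell (0.0795%) were Stab2, Lyve1, Fam167b, Rasgrp3, Gng11, Pea15, Tcf4, Ets1 and Gpr182, and the 3 that rose (0.0265%) were Cyp1a1, Hoxc5 and Naxe. After D5W 11 of the 12 had the same sign and 9 passed there too, while Naxe, an enzyme that repairs damaged NADH and NADPH, had a difference of -0.07 after D5W against 0.32 ± 0.07 after oxaliplatin.

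Stab2 (1385160_at), the scavenger receptor that takes hyaluronan up from blood, read 10.28, 9.93, 10.01 and 10.34 with F68 and 9.20, 9.69 and 8.93 with sorafenib after D5W. After oxaliplatin Stab2 read 9.85, 9.96, 9.91 and 9.68 with F68 and 8.16, 8.65, 9.01 and 9.08 with sorafenib. The highest sorafenib rat, at 9.69, lay just above the lowest F68 rat, at 9.68, in the other infusion, and within each infusion the rats did not overlap. Stab2 fell by 1.11 ± 0.17 on the log2 scale in the fit without narrow arrays (adjusted p = 4.32e-05), 2.15-fold, and by 0.87 ± 0.21 after D5W (adjusted p = 0.00538). With all 4 oxaliplatin then sorafenib rats the difference was -1.13 ± 0.19 and missed the threshold in the fit of 4 groups (adjusted p = 0.0685). It passed with all 4 rats in 1 model of 24 liver groups (-1.13 ± 0.16, adjusted p = 5.8e-06).

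Gng11, a gamma subunit of heterotrimeric G proteins, ranged from 8.13 to 8.87 with a median of 8.38 in the 7 sorafenib rats and from 8.84 to 9.39 with a median of 9.11 in the 8 F68 rats, and fell by 0.63 ± 0.12 without the narrow arrays (adjusted p = 0.00306). Ets1 ranged from 8.65 to 9.34 with a median of 8.86 with sorafenib and from 9.44 to 9.79 with a median of 9.65 with F68. Its difference was -0.43 ± 0.09 (adjusted p = 0.00552), and its groups did not overlap. Tcf4, a basic helix-loop-helix transcription factor, ranged from 7.13 to 8.13 with sorafenib, median 7.76, and from 8.41 to 8.65 with F68, median 8.49, and fell by 0.45 ± 0.10 (adjusted p = 0.0161). For Tcf4 the lowest of the oxaliplatin then sorafenib rats, at 7.13, was the narrow array, and the difference after D5W was a 2.01-fold fall against 1.37-fold without the narrow arrays. Pea15, a small protein that binds ERK kinases and holds them in the cytoplasm, fell by 0.54 ± 0.10 (adjusted p = 0.00136). Gpr182, a receptor of sinusoidal endothelium, fell by 0.39 ± 0.09 (adjusted p = 0.0423) and ranged from 8.53 to 8.88 with sorafenib and from 8.90 to 9.38 with F68, without overlap. Hoxc5, a homeobox transcription factor, rose by 0.33 ± 0.07 (adjusted p = 0.016) from a level near the limit of the filter, with medians of 6.61 with sorafenib and 6.08 with F68.

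Cyp1a1 (1370269_at), which oxidizes polycyclic aromatic compounds, was the gene with the largest rise among the 12. It read 6.40, 6.26, 6.30 and 6.42 with F68 and 8.84, 7.08 and 8.08 with sorafenib after D5W. After oxaliplatin Cyp1a1 read 6.26, 6.51, 6.70 and 6.59 with F68 and 9.24, 7.40, 8.27 and 7.96 with sorafenib. All sorafenib rats lay above all F68 rats, but they spread over more than 2 log2 units, and after oxaliplatin the narrow array was the lowest of them. The rise was 1.66 ± 0.38 after D5W (adjusted p = 0.00409), 3.16-fold, and 1.99 ± 0.27 without the narrow arrays (adjusted p = 3.66e-06), 3.97-fold. With all 4 rats after oxaliplatin the difference was 1.70 ± 0.35 in the fit of 4 groups (adjusted p = 0.235). In 1 model of 24 liver groups with all 4 rats it was 1.70 ± 0.28 (adjusted p = 9.56e-05).

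Of 27 cytochromes P450 and xenobiotic receptors tested, 3 rose on average (Cyp1a1, Cyp1a2 and Rxra), 2 fell (Cyp2c22 and Cyp1b1) and 22 did not pass. These are 11.1% and 7.41% of the list, below the 17.4% and 16% of all genes, and the median difference was 0.01, against -0.02 over all genes. Cyp1a2, the caffeine-oxidizing enzyme that shares the aryl hydrocarbon receptor with Cyp1a1, ranged from 13.66 to 14.15 with sorafenib, median 13.85, and from 12.99 to 13.79 with F68, median 13.48. Cyp1a2 rose by 0.52 ± 0.09 on average (adjusted p = 0.00154), but the difference was 0.78 after D5W and 0.28 ± 0.14 without the narrow arrays (adjusted p = 0.714). Rxra, the partner of several nuclear receptors, rose by 1.2 ± 0.18 after D5W (adjusted p = 0.000559) and differed by -0.01 without the narrow arrays. In the conjugation and transport list 1 of 23 genes passed, the glutathione transferase Gstm2 (0.48 ± 0.13, adjusted p = 0.0129), and it differed by 0.17 without the narrow arrays. Cyp1a1 was the member of these lists that passed without the narrow arrays.

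In 24 of the 40 lists neither the share of higher nor that of lower members exceeded the share over all genes, and 9 lists exceeded it for higher and 8 for lower members. Of the 40 lists, that of endothelial markers had the most members that fell. Of 19 measured, 9 fell on average (47.4%), 8 of them without Clec14a, 1 rose (5.26%) and 9 did not pass, against 16% lower and 17.4% higher of all genes. The members that fell were Stab2, Lyve1, Stab1 (-0.74 ± 0.10, adjusted p = 0.000877), Fcgr2b (-0.60 ± 0.10, adjusted p = 0.00144), Emcn (-0.49), Mmrn2 (-0.48), Clec14a (-0.43), Kdr (-0.34) and Gpr182 (-0.33). Stab1 is the scavenger receptor related to Stab2, Fcgr2b the inhibitory Fc receptor with which sinusoidal cells take up immune complexes, Emcn a sialomucin of venous and capillary endothelium, and Kdr the main signalling receptor for VEGF. In the 7 sorafenib rats Stab1 ranged from 7.15 to 7.92, median 7.69, and in the 8 F68 rats from 8.14 to 8.50, median 8.28, without overlap. Fcgr2b ranged from 10.26 to 10.80 with sorafenib, median 10.54, and from 10.71 to 11.30 with F68, median 11.10, so that the groups overlapped slightly.

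Eng, endoglin, a co-receptor for TGF-beta ligands, rose by 0.33 ± 0.08 on average (adjusted p = 0.00703), and by 0.57 after D5W against 0.04 without the narrow arrays. The markers Tek, Pecam1, Egfl7, Vwf, Esam, Flt1, Tie1, Sox18 and Plvap did not pass. The median of the list was -0.25 after D5W, -0.17 after oxaliplatin and -0.16 without the narrow arrays, against -0.04, 0.00 and 0.01 over all genes. Without the narrow arrays 14 of the 19 markers were below 0 and 3 fell at an adjusted p under 0.05, Stab2, Lyve1 and Gpr182, while Clec14a was at 0.02 ± 0.20. In whole liver, fewer endothelial cells and less of these RNAs per cell cannot be told apart.

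**Figure D4:**
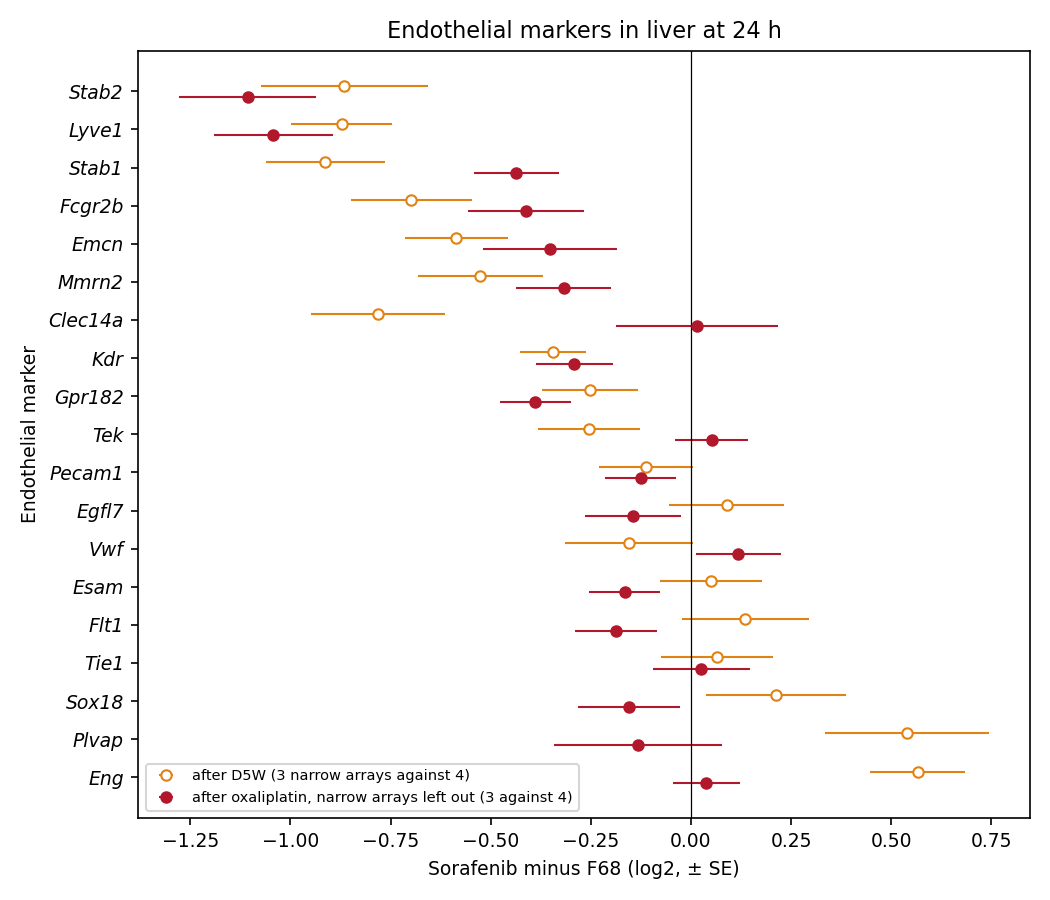
Sorafenib minus F68 difference (log2, ± SE) of the 19 measured endothelial markers after D5W (open circles, 3 rats against 4) and after oxaliplatin without the narrow array (filled circles, 3 against 4), in the order of the averaged difference. Stab2 and Lyve1 lie near -1 with both infusions, and Clec14a, Plvap and Eng lie away from 0 after D5W and within 1 SE of it after oxaliplatin.

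Markers of other cells were counted in the same way. None of 9 hepatocyte markers and none of 3 heart markers passed, and of 7 kidney markers Lrp2 fell (-0.50 ± 0.12). Umod differed by 0.49, but it was above the filter in sorafenib rats only, with a highest value of 5.88 log2 in the F68 rats. The hepatocyte markers had a median difference of -0.02, and albumin (Alb) differed by -0.01 ± 0.04. Of 17 stellate cell and fibroblast markers, 5 fell (29.4%), 4 of them without Lum (-0.58), and 1 rose (5.88%). The other members that fell were Pdgfrb (-0.61 ± 0.14), Rgs5 (-0.58), Lrat (-0.57), the enzyme with which stellate cells store retinol, and Sparc (-0.26), and Acta2, smooth muscle actin, rose by 0.44. Their median was -0.39 after D5W and 0.03 without the narrow arrays, where no member passed and Acta2 differed by -0.04. Of 10 macrophage markers 3 fell (30%), Adgre1 (-1.07 ± 0.19), the F4/80 antigen, Lyz2 (-0.64) and Mrc1 (-0.60), the mannose receptor, which sinusoidal endothelium carries as well. Mrc1 ranged from 9.68 to 10.40 with sorafenib and from 10.51 to 11.06 with F68, without overlap, and kept a difference of -0.45 ± 0.13 without the narrow arrays (adjusted p = 0.204), while Lyz2 differed there by -0.06 and the median of the list by -0.01. Adgre1 differed there by -0.37 ± 0.34 (adjusted p = 0.911). In D5W then F68 replicate 3 Adgre1 read 8.71, against 7.53 to 7.85 in the rest of that group. Of the lymphocyte markers 1 of 13 fell (Lck) and 1 rose (Cd4), of the neutrophil markers 1 of 4 rose (Ncf1), of the erythroid markers 1 of 4 fell (Ahsp), of the cholangiocyte markers 1 of 5 rose (Aqp1), and none of these passed without the narrow arrays.

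Of 10 listed kinases that sorafenib inhibits, 8 were on the array and 7 passed the filter and were tested. No RAF kinase is among these 7. Kdr and Pdgfrb, the receptors for VEGF and PDGF-BB, fell by 0.34 ± 0.06 (adjusted p = 0.0013) and 0.61 ± 0.14 (adjusted p = 0.00586) on the log2 scale. Kdr ranged from 10.51 to 10.93 with sorafenib and from 10.93 to 11.27 with F68, so that the arms overlapped at the edge, and its differences were the same with each infusion, -0.34 and -0.34, and -0.29 ± 0.10 without the narrow array (adjusted p = 0.377). Ret and Flt3 rose by 0.26 and 0.29 on average and differed by 0.08 and 0.00 without the narrow arrays. Fgfr1, Flt1 and Flt4 did not pass. Among 13 ERK pathway targets, transcripts that rise when RAF and MEK are active, 2 rose (15.4%), Fosl1 (0.42 ± 0.09) and Etv5 (0.37 ± 0.11), and the 1 that fell, Etv1 (-0.41), was above the filter in F68 rats only, with a highest value of 5.88 log2 in the sorafenib rats. Among 13 immediate early genes 1 fell (Klf6) and 3 rose (23.1%; Fos, Nr4a1 and Zfp36). Zfp36, a protein that speeds the decay of inflammatory mRNAs, rose by 1.38 ± 0.18 after D5W and differed by -0.11 ± 0.21 without the narrow arrays. Of 14 hypoxia genes 4 rose (28.6%), 3 of them, Pfkfb3 (0.46), Vegfa (0.29 ± 0.06) and Ndrg1 (0.20), without Car9 (0.40), whose highest value in the F68 rats was 5.98 log2. Ankrd37 fell, and Vegfa differed by 0.05 ± 0.12 without the narrow arrays.

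Among 27 proliferation genes, Mki67, the Ki-67 antigen, fell (-0.65 ± 0.22) and the mitotic kinase Plk1 rose (0.42). The spindle checkpoint kinase Bub1 differed by -0.47 but was above the filter in F68 rats only, and counted with it 7.41% of the list fell and 3.7% rose, below the shares of all genes. Signs differed between the infusions: 25 of 27 were below 0 after D5W, with a median of -0.41, and 24 of 27 were above 0 without the narrow arrays, with a median of 0.18, where no gene passed. Of 15 p53 targets 3 fell (Gdf15, Ddb2 and Sesn1) and 1, the cell cycle inhibitor Cdkn1a, rose by 0.72 ± 0.16, with a list median of -0.43 after D5W and 0.05 without the narrow arrays. Of 32 ribosome biogenesis genes 5 fell, among them Ddx21 (-0.46) and Utp20 (-0.44), and 3 rose, Rrp9 (0.51), Dkc1 (0.44) and Nop2 (0.38), and the median without the narrow arrays was -0.01.

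In sterol synthesis, 2 of 20 genes fell, Hsd17b7 (-0.92 ± 0.22, adjusted p = 0.00743) and Msmo1 (-0.64 ± 0.21, adjusted p = 0.0293), both enzymes late in the cholesterol pathway, and 1 rose, Srebf2 (0.57 ± 0.11), the transcription factor that drives the pathway. Hsd17b7 read 9.08, 9.41, 9.33 and 9.66 with F68 and 8.68, 8.00 and 9.18 with sorafenib after D5W, and 9.90, 10.35, 9.80 and 9.13 with F68 and 9.39, 8.02, 8.64 and 8.84 with sorafenib after oxaliplatin. The lowest F68 rat in each infusion lay below the highest sorafenib rat. Without the narrow arrays 19 of the 20 genes were below 0, with a median of -0.29, and none passed: Hsd17b7 was at -0.84 ± 0.25 (adjusted p = 0.259), Sqle, squalene epoxidase, at -0.82 ± 0.31 (adjusted p = 0.46) and Srebf2 at -0.10 ± 0.13. After D5W 14 of the 20 were below 0, with a median of -0.13. None of 18 lipogenesis genes passed, and their median was 0.06 after D5W and -0.16 without the narrow arrays. Of 23 fatty acid oxidation and PPAR alpha targets, Plin2, the coat protein of lipid droplets, fell (-0.49 ± 0.17), and of 17 bile acid genes Slc51a, a subunit of the basolateral bile acid exporter, rose (0.49 ± 0.09).

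Calls were few in glucose and amino acid metabolism. Among 14 glucose metabolism genes Insr, the insulin receptor, fell (-0.43) and Ppargc1a, a coactivator of gluconeogenic genes, rose (0.66 ± 0.14), with differences of 0.08 and -0.09 without the narrow arrays. Irs1 differed by -0.38 on average and by -0.13 without the narrow arrays, and it was above the filter in F68 rats only. Of 19 urea cycle and amino acid genes Ass1 rose (0.30 ± 0.08), and of 23 coagulation and complement genes Serpinf2 rose (0.24). Among 10 pericentral genes, those expressed around the central vein, 4 rose, Slc13a3 (1.04 ± 0.20), Tbx3 (0.74), Cyp1a2 and Axin2 (0.51), and among 12 periportal genes 1, Ass1. These are 40% and 8.33% of the lists, against 17.4% of all genes. Without the narrow arrays none of the 10 pericentral genes passed, 6 were above 0 and 4 below, and their median was 0.09. The largest rise among them was then 0.28. Of the clock genes Cry1 (-0.72 ± 0.15) and Clock (-0.60) fell and Nr1d1 (0.83), Per1 (0.57) and Per2 (0.38) rose, 17.6% of 17 genes higher and 11.8% lower against 17.4% and 16% of all genes, and each differed by under 0.3 without the narrow arrays. Of the 26 oxidative phosphorylation subunits Uqcrc2 fell (-0.24) and Cox5a rose (0.37), among 13 growth hormone and Stat5 targets Ghr, the growth hormone receptor, fell (-0.25), and among 10 iron genes Bmp6, the signal that raises hepcidin, rose (0.36).

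In stress and inflammation lists the calls were few and mixed. Of 18 unfolded protein response genes the chaperones Hyou1 (1.01 ± 0.27) and Calr (0.50) rose and Dnajc3 fell (-0.22), and Hyou1 differed by 1.83 after D5W and by -0.12 without the narrow arrays. Fgf21 (-0.60), Gdf15 (-0.55) and Ddit3 (-0.51) fell and Vldlr rose (0.41) among 16 Atf4 targets. Of 10 heat shock genes Hspa4 and Dnaja1 fell, of 16 Nrf2 targets the exporter Abcc4 fell (-0.61) and Srxn1 rose (0.40), and of 20 acute phase genes Stat3 rose (0.92 ± 0.20). Without the narrow arrays no gene of these lists passed. Abcc4 then differed by -0.18, and the largest rise among the acute phase genes was 0.20. Among 16 NF-kB and inflammation genes 5 rose (31.2%), Csf1 (0.46), Nos2 (0.43 ± 0.06), Relb (0.33), Tnf (0.31) and Selp (0.28), and 2 fell, Il1b (-0.85 ± 0.24) and Vcam1 (-0.53). In this list the median was 0.16 after D5W and 0.17 without the narrow arrays, with 14 of 16 above 0 and none passed. None of 20 interferon response genes passed, and here too the signs differed, with 18 below 0 and a median of -0.31 after D5W, and 18 above 0 and a median of 0.37 without the narrow arrays. Of 15 glucocorticoid targets Mt2A, Per1 and Cebpb rose. Mt2A, a metal-binding metallothionein, read 12.20, 9.32, 11.93 and 11.43 with F68 and 14.29, 13.14 and 13.41 with sorafenib after D5W, and 11.22, 9.77, 13.85 and 14.23 with F68 and 14.02, 14.27, 11.93 and 14.73 with sorafenib after oxaliplatin. The rats separated after D5W and overlapped after oxaliplatin, and the average difference was 1.93 ± 0.67 (adjusted p = 0.0388).

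**Figure D5:**
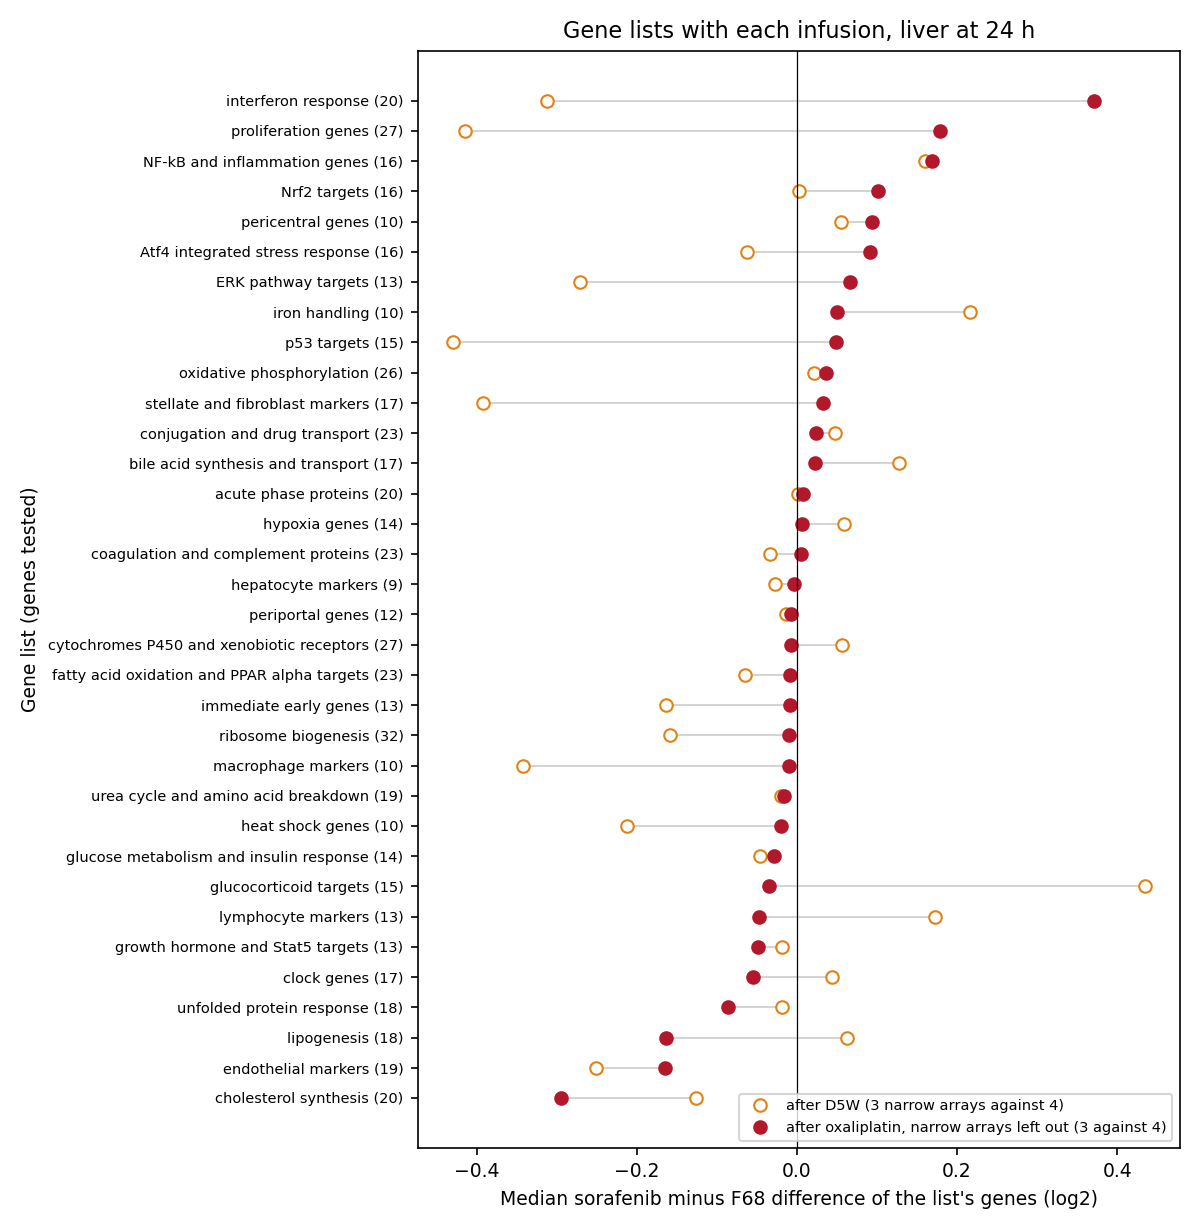
Median sorafenib minus F68 difference (log2) of the tested genes of each list after D5W (open circles) and after oxaliplatin without the narrow array (filled circles), with the number of genes tested in parentheses. Lists with fewer than 9 genes tested are not drawn. Endothelial markers and cholesterol synthesis lie below -0.1 with both infusions, NF-kB and inflammation genes lie near 0.16 with both, and interferon response and proliferation genes lie on opposite sides of 0.

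The difference of the sorafenib effect between the infusions was tested directly. It passed for 72 genes (0.636%), of which 50 had the higher difference after D5W (0.442%) and 22 the lower (0.194%). Tmc4 was among the 72, while Adrm1 and Cdh17, whose values by rat follow, did not pass this test. Adrm1, a ubiquitin receptor of the proteasome, read 7.23, 7.20, 7.11 and 7.24 with F68 and 9.36, 9.58 and 9.59 with sorafenib after D5W. After oxaliplatin Adrm1 read 7.37, 7.57, 7.53 and 7.25 with F68 and 7.67, 9.68, 7.62 and 7.07 with sorafenib. The narrow array, at 9.68, stood with the D5W then sorafenib rats, and the other 3 stood with the F68 rats. Tmc4 differed by 2.21 after D5W and by 0.11 without the narrow arrays. Cdh17, a cadherin, read 11.01, 11.11, 9.75 and 10.74 with F68 and 7.70, 6.93 and 6.04 with sorafenib after D5W, and 10.28, 10.36, 10.73 and 10.75 with F68 and 9.87, 9.87, 9.70 and 6.62 with sorafenib after oxaliplatin. Here the lowest oxaliplatin then sorafenib rat, replicate 4, was not the narrow one, and all sorafenib rats but 2 lay below every F68 rat. Cdh17 differed by -3.76 after D5W, by -1.52 after oxaliplatin and by -1.81 ± 0.95 without the narrow arrays (adjusted p = 0.736).

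The count of 72 rested on which rats were in the fit. It was 2027 without oxaliplatin then sorafenib replicate 2, the narrow array of that group, 784 without D5W then sorafenib replicate 4, 44 without D5W then sorafenib replicate 2, and 76 without oxaliplatin then F68 replicate 1. Without any 1 of the other 11 rats, which were replicates 1 to 4 of D5W then F68, replicates 2 to 4 of oxaliplatin then F68, replicates 1, 3 and 4 of oxaliplatin then sorafenib and replicate 3 of D5W then sorafenib, it was 1 to 4.

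The same genes were read at 1 h and 6 h and in the sunitinib rats in 1 model of the 95 liver arrays in 24 groups. Sorafenib minus F68, averaged over both infusions, passed for 70 genes at 1 h (0.618%), 168 at 6 h (1.48%) and 5725 at 24 h (50.6%) in this model. Fam167b was already lower at 6 h (-1.02 ± 0.13, adjusted p = 2.92e-07) and not at 1 h (-0.07). At 6 h Pea15 (-0.34 ± 0.07, adjusted p = 0.00269), Fcgr2b (-0.47 ± 0.10, adjusted p = 0.00485), Rasgrp3 (-0.33 ± 0.09, adjusted p = 0.0368) and the cell cycle gene Ccnd2 (-0.74 ± 0.11, adjusted p = 1.14e-05) had fallen too. Adamts1 was lower at 1 h (-0.78 ± 0.15, adjusted p = 0.00422) and did not pass at 6 h (-0.42). Lyve1 and Stab2 stood at 0.03 and 0.16 at 1 h and at -0.28 ± 0.10 (adjusted p = 0.124) and -0.17 ± 0.11 (adjusted p = 0.472) at 6 h. Their differences at 24 h were below those at 6 h, by 0.70 ± 0.14 for Lyve1 (adjusted p = 8.31e-05) and 0.82 ± 0.16 for Stab2 (adjusted p = 8.04e-05). Cyp1a1 stood at 0.04 at 1 h and 0.66 ± 0.20 at 6 h (adjusted p = 0.0679), and was 1.02 ± 0.28 higher at 24 h than at 6 h (adjusted p = 0.00321).

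Sunitinib, a kinase inhibitor that also acts on VEGF and PDGF receptors, was given at 5 mg per kg, against 25 mg per kg of sorafenib. It was given in water and on another day than sorafenib, so dose, day and vehicle cannot be told apart from the drug. Sunitinib minus water at 24 h passed for 198 genes (1.75%). Of the genes above, Ets1 fell with sunitinib (-0.22 ± 0.06, adjusted p = 0.0421), while Lyve1 (-0.18), Stab2 (-0.09), Fam167b (-0.07), Rasgrp3 (-0.15), Adamts1 (0.04) and Cyp1a1 (0.32 ± 0.20, adjusted p = 0.408) did not pass. The sorafenib effect minus the sunitinib effect was -0.79 ± 0.14 for Lyve1 (adjusted p = 9.47e-06), -0.90 ± 0.16 for Stab2 (adjusted p = 1.64e-05), -1.07 ± 0.19 for Fam167b (adjusted p = 8.7e-06) and 1.36 ± 0.28 for Cyp1a1 (adjusted p = 0.000112). In all, 3908 genes differed between 24 h and 6 h (34.5%) and 3904 between the drugs (34.5%). After oxaliplatin without the narrow arrays, 1 gene differed between 24 h and 6 h, Ipo4, a nuclear import receptor (0.60 ± 0.11, adjusted p = 0.00467), and 0 between the drugs in limma, with 864 and 741 genes at an unadjusted p under 0.05, so the calls above were lost there. Between the drugs Cyp1a1 then stood at 1.75 ± 0.37 (adjusted p = 0.0546), Lyve1 at -0.80 (adjusted p = 0.206), Stab2 at -0.86 (adjusted p = 0.243) and Fam167b at -0.58 ± 0.27 (adjusted p = 0.713). Between 24 h and 6 h Lyve1 stood at -0.79 (adjusted p = 0.217), Stab2 at -0.94 (adjusted p = 0.217), Cyp1a1 at 1.60 ± 0.37 (adjusted p = 0.162) and Fam167b at 0.14 ± 0.27 (adjusted p = 0.941).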

How the data were processed

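Liver RNA was hybridized to Affymetrix whole-genome rat arrays, 1 per rat. The deposited values were log2 expression per probe set, which the authors computed by RMA (robust multi-array average), with a version not given in the sources used here, so background correction could not be varied. Arrays have no read depth, and precision was limited by their number. Of 31099 probe sets, 20832 had 1 gene symbol in the platform annotation, 436 several and 9831 none, and the latter kinds were left out with 57 controls. The identifiers of 20764 were found in RefSeq.

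The 95 liver arrays with a liver profile were quantile-normalized again. Each gene was represented by its probe set with the highest mean, and genes above 6 log2 on 3 or more of the 15 arrays, 11320 of 14217, entered limma 3.58.1 (R 4.3.3) models with a mean per group and contrasts averaged over the infusions, within each infusion and between them. A gene changed on average when its Benjamini-Hochberg adjusted p was under 0.05 and its sign was the same in both infusions. Errors after ± are standard errors from limma. The scripts were tested on simulated data.

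The members and the 40 gene lists were chosen with earlier results of these data known. Named genes were the 12 largest in each direction among those called after both infusions, the target kinases, up to 4 changed members of each list and up to 5 per direction of the other contrasts. Genes outside this rule were chosen after their values were seen: the 12 genes called after oxaliplatin without the narrow arrays, Alb, Sqle, Ipo4, and further members of lists, such as the remaining endothelial markers. Genes with placeholder symbols (LOC, RGD, Olr) were counted only. Replicates were separate rats, numbered in the order of their records.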

Additional observations from a re-analysis of the deposited data

Results flagged for a closer look

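Single rats lay far from the rest of their group in 6 of 78 checks, where chance gives about 1 in 20 for independent checks. These checks shared rats and used genes picked with results known, so that rate is no yardstick for them. The D5W then sorafenib group was not checked. Among the oxaliplatin then sorafenib rats, replicate 2 was lowest for Tcf4 (7.128 log2) and highest on the first principal component (28.61), and replicate 4 was lowest for Cdh17 (6.624) and had the highest difference between the 3′ and 5′ probe sets of beta-actin (0.8371), a measure of RNA quality. Gpr182 was highest in 1 D5W then F68 rat (9.239) and Rb1 in 1 oxaliplatin then F68 rat (9.247).

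The sorafenib effect differed between the infusions for 72 genes. Beside Tmc4 (1.797, D5W minus oxaliplatin, log2), the larger differences above 0 were Kcnh1 (1.729), Atp6v0a1 (1.621), a subunit of the vacuolar proton pump, Slc18a3 (1.452) and Zfp36 (1.292). Those below 0 were Rnf6 (-1.776), Mgmt (-1.473), a DNA repair enzyme, Ctps2 (-1.304), which makes CTP, Osgep (-1.287) and Trio (-1.285). The narrow arrays make up the whole D5W then sorafenib group, and their part in these differences cannot be told apart from the infusion.

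The effect at 24 h differed from that at 6 h for 3908 genes. The largest rises were Mt2A (2.335), Igfbp1 (1.52), Adrm1 (1.48), Scaf1 (1.37) and Tmc4 (1.283), and the largest falls Cdh17 (-3.535), Pnpla3 (-2.308), a lipase of lipid droplets, Krt10 (-1.66), Nrep (-1.479) and Igf2bp3 (-1.406). The effects of sorafenib and sunitinib differed for 3904 genes, led by Ly6al (1.53), Adrm1 (1.463), Cyp1a1 (1.365), Id2 (1.338) and Scaf1 (1.256) above 0 and by Cdh17 (-2.502), Lcn2 (-2.404), Krt10 (-2.105), Gpm6a (-1.644) and Tmed3 (-1.325) below 0. For Lcn2, D5W then F68 replicate 3 read 13.74 log2, against 9.97, 8.01 and 10.035 in the other rats of its group. That rat was also the highest of its group for Il1b (9.51), Adgre1 (8.71), Lyz2 (13.27) and Mki67 (7.66).

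The array left out of the D5W then sorafenib group carried a kidney marker median of 13.03 under a liver label.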

How the results depend on the processing

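No paired analysis was possible because the labels carry no replicate numbers. The alternatives that use the narrow arrays or the interquartile range were added after seeing the data. The 3776 genes changed on average became 5981 on the values as deposited, 6179 with median centring, 2384 with the kidney-profile array kept, 967 with the beta-actin 3′ to 5′ difference as a covariate, 43 against a fold of 1.2 and 0 with the interquartile range as a covariate. After D5W, the 4468 genes became 6707, 6920, 1377 (beta-actin), 1190 (fold) and 0 (interquartile range). After oxaliplatin, 5 genes became 188 in 1 model of 24 liver groups, 10 in that model without the narrow oxaliplatin array, 12 without the 4 narrow arrays, 0 with the kidney-profile array, and 1 with the beta-actin covariate, the fold or the interquartile range, and 1 to 6 without single rats. The genes changed after both infusions, 5, became 175 and 9 in the models of 24 groups with and without the narrow oxaliplatin array, 0 with the kidney-profile array or the interquartile range, and 1 with beta-actin or the fold, and 1 to 6 without single rats.

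The 72 genes that differed between the infusions became 11 as deposited, 217 with median centring, 2828 and 3916 in the models of 24 groups with and without the narrow oxaliplatin array, 2 with group array weights or with no filter, 8 with trended and robust eBayes, 0 with the kidney-profile array, beta-actin, the fold or the interquartile range, and 1 to 2027 without single rats. With the oxaliplatin infusion alone and no narrow array, 1 gene differed between 24 h and 6 h and 0 between sorafenib and sunitinib, where Adrm1 turned to -0.0221. The 9 lower endothelial markers became 5 with the kidney-profile array, 3 against the fold and 0 with the interquartile range, and their median was -0.315 with median centring. Lyve1 passed after oxaliplatin in each alternative but the one that kept the kidney-profile array. The causes of these moves were not tested.

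With the interquartile range as a covariate the averaged difference turned for Aqp1 (-0.0965), Axin2 (-0.287), Bmp6 (-0.0302), Bub1 (0.078), Cd4 (-0.371), Chic1 (0.0813), Clock (0.0393), Ddx21 (0.148), Etv5 (-0.0151), Flt3 (-0.0259), Il1b (0.176), Klf6 (0.11), Msmo1 (0.0702), Nr1d1 (-0.119), Per1 (-0.316), Pfkfb3 (-0.0726), Plin2 (0.112), Ppargc1a (-0.047), Utp20 (0.196), Vcam1 (0.0788) and Vldlr (-0.0374). With the kidney-profile array it turned for Cyp1a2 (-0.428), Etv1 (0.204) and Lrp2 (0.346). A group of 3 or 4 rats, whose D5W then sorafenib members are all narrow arrays, limits every comparison here.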
